A study of Mus musculus with 9 samples.

Results

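The interferon regulatory factors are a family of transcription factors, and 8 of their genes, Irf1, Irf2, Irf3, Irf4, Irf5, Irf7, Irf8 and Irf9, were followed here among the 54532 genes of an RNA-seq table of RAW264.7 cells. They were taken by gene symbol. RAW264.7 is a wild-type mouse macrophage line established from ascites. The study compared 3 groups of 3 libraries, which were control cells, cells given 1 μg/ml LPS for 6 h, and cells given 1 μg/ml LPS plus 400 μg/ml G-CDs for 6 h. LPS is a surface glycolipid of Gram-negative bacteria that macrophages sense through Toll-like receptor 4, and G-CDs are carbon dots made from Glycyrrhiza (licorice). All 3 groups are the same cell line, no group received G-CDs without LPS, and for the last group the labels carry G-CDs in the sample titles while their treatment entry mentions LPS alone. The labels do not say that libraries of a group came from separate cultures, so p-values measure the spread between these samples, which may be technical.

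All family members recognize related DNA elements built around GAAA repeats, but they are switched on in different ways. Irf3 and Irf7 wait in the cytoplasm until the kinases Tbk1 and Ikbke phosphorylate them downstream of Toll-like and nucleic acid receptors, and then drive the interferon-β gene, while Irf5 is activated through the adaptor Myd88. Secreted interferon signals through JAK kinases to STAT proteins, among them Stat2, which joins Irf9 to bind interferon-stimulated response elements, and the Irf7 gene is a classical target of that complex. Irf1 is an inducible activator, Irf2 opposes it at shared sites, and Irf4 and Irf8 bind DNA with ETS partners such as Spi1 and take part in the development of lymphoid and myeloid cells.

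DNA upstream of 4 members is shown first, with matches to 4 motifs in capitals: Irf7 and Irf8, which had the largest rises, and Irf1 and Irf2, whose windows hold matches. Irf9 is not shown because the bases before its first start are annotated as exon. RefSeq promoter windows of 300 bases (GRCm38.p6, from 250 bases before a transcript start to 50 after it) matched all 8 members, with 11 windows in all. Both strands were searched for the interferon-stimulated response element core (GAAA, any 2 bases, GAAA), which 3.44% of the 32851 windows of all genes hold, the gamma-activated sequence TTCNNNGAA, an element of interferon-γ responsive genes (8.3%), the ETS-IRF composite element (GGAA, any 2 bases, GAAA; 2.72%) and the NF-κB consensus (8.46%). The Irf8 window shown, upstream of a gene that LPS raised, holds 2 gamma-activated sequences beginning 171 and 153 bases before the start. The Irf1 window shown holds 1 gamma-activated sequence 90 bases and 1 NF-κB match 13 bases before its start. Irf8 and Irf1 each have another window, at a later start, that holds no match. The stretch shown for Irf7, the member with the largest rise, has none of the 4 motifs. Irf2 is the only member with a response element core, 241 bases before its start, which overlaps a composite element beginning at 247 and is followed by a gamma-activated sequence at 224. An NF-κB match 17 bases before that start is not in the stretch shown. No match was found in any window of Irf3, Irf4, Irf5, Irf7 and Irf9. A match describes letters and is not evidence of binding, and a window without one says nothing about elements outside it. The sequences run 5′ to 3′ on the strand of the gene.
Irf8, chr8:120736158-120736357, plus strand: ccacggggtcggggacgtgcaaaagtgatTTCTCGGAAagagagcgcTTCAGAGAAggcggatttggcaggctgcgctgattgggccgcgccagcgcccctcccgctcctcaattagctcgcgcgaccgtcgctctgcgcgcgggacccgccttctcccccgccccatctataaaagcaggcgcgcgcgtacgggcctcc
Irf1, chr11:53769814-53770013, plus strand: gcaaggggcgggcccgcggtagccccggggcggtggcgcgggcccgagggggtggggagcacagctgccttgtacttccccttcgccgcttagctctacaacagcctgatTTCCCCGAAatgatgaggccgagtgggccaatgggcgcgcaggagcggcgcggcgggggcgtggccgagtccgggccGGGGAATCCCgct
Irf7, chr7:141266482-141266674, minus strand: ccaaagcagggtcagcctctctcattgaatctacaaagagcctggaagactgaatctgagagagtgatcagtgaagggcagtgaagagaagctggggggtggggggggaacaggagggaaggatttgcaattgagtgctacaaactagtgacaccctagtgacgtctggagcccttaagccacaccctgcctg
Irf2, chr8:46739495-46739543, plus strand: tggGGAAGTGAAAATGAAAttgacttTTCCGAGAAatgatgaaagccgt

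The libraries held between 14752400 and 17312255 reads on genes, recovered from the deposited FPKM values (reads scaled to gene length and to a library size set by the authors). That library size was 1.108 to 1.14 times the reads on genes in the control group, 0.929 to 0.936 times with LPS and 0.88 to 0.98 times with LPS + G-CDs. LPS replicates were tightest, with a median log2 SD per gene of 0.09, against 0.24 among control and 0.26 among LPS + G-CDs replicates. Of 9 macrophage markers 8 passed the filter on low values, with Mertk at 0, and their summed level ranged from 2650 to 3650 FPKM in control, 3850 to 4070 in LPS and 3230 to 5330 in LPS + G-CDs libraries. Without Cd14, the sum ranged from 2230 to 3160 FPKM in control, 1630 to 1710 in LPS and 1290 to 1920 in LPS + G-CDs libraries, so with LPS its direction turned, and the part of these levels in the results was not tested. None of the markers of B cells, T cells, dendritic cells, neutrophils or fibroblasts passed the filter, and the highest was Camp at 0.956 FPKM. In bulk RNA, fewer cells that express a gene and less RNA per cell cannot be told apart.

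LPS raised 3 of the 7 tested members, Irf7, Irf8 and Irf9, and lowered none. They were tested with limma on log2(FPKM + 1) in 1 model of the 9 libraries, over the 11585 genes that reached 1 FPKM in 3 or more libraries, at a Benjamini-Hochberg adjusted p under 0.05. By that call 31.3% of all tested genes changed, 15.8% upward and 15.6% downward. That even split depends on the scaling, as with TPM 35.6% changed, 1015 genes upward and 3106 downward. Irf4 was below the filter and was not tested. The LPS libraries lay above all control libraries for 4 members and below them for 1, where 27.4% of tested genes lay above and 25.1% below (52.5% together). The median log2 fold change of the 7 members was 0.42, against 0.02 over all tested genes. The added 1 compresses changes of weakly expressed genes. The plot of FPKM by library shows these levels for each member.

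**Figure D1:**
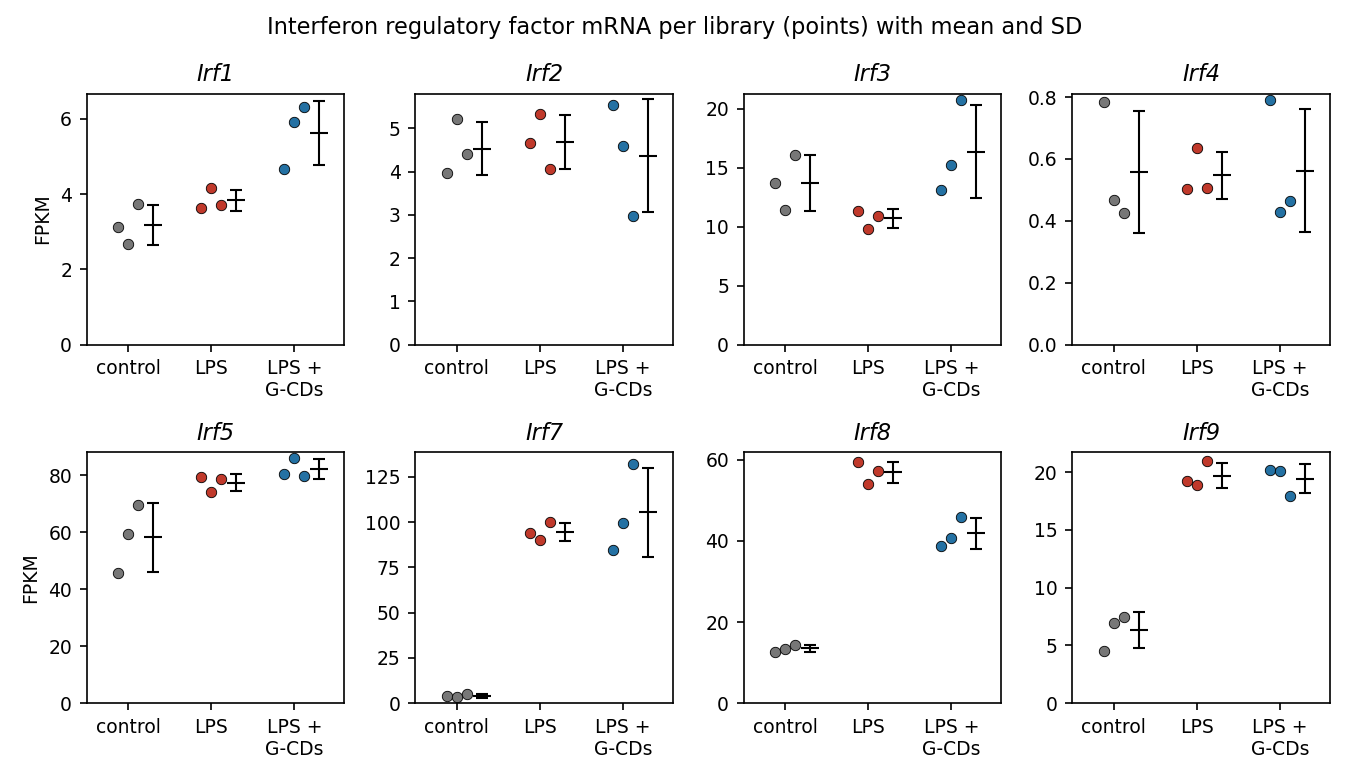
FPKM (vertical axes, linear, from 0) of the 8 members in the 3 control, 3 LPS and 3 LPS + G-CDs libraries; points are libraries in replicate order, horizontal ticks are group means and bars are SD. Irf7 stands at 3.28 to 5.28 FPKM in control cells and at 84.5 to 132 FPKM in all 6 LPS-treated libraries, while Irf8 forms 3 separate levels.

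Irf7, the factor that amplifies the type I interferon response (ENSMUSG00000025498, chr7:141262706-141266481, minus strand), had the largest change of the family. Its level was 3.70, 3.28 and 5.28 FPKM in the control libraries and 93.7, 90.1 and 99.9 FPKM in the LPS libraries. Every LPS library was far above every control library, and the reads behind the values went from 211 to 355 per control library to between 4697 and 5486 per LPS library. The mean rose 23.1-fold, and the log2 fold change was 4.25 (SE 0.19, limma, adjusted p = 7.2e-07), which placed Irf7 49th among the 11585 tested genes by rise.

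Irf8, which directs macrophage differentiation and takes part in inflammatory gene induction (ENSMUSG00000041515, chr8:120736358-120756694, plus strand), was the second. Control libraries held 12.7, 13.5 and 14.2 FPKM and LPS libraries 59.4, 54.1 and 57.4 FPKM. The groups were apart by several times their SD, with means of 13.5 ± 0.758 and 56.9 ± 2.66 FPKM (SD, n = 3). The mean rose 4.22-fold and the log2 fold change was 2.0 (SE 0.11, limma, adjusted p = 2.4e-06). The 2 gamma-activated sequences printed above lie upstream of this start, and binding to them was not measured.

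Irf9, the DNA-binding partner of Stat2 (ENSMUSG00000002325, chr14:55603571-55610030, plus strand), read 4.55, 6.92 and 7.5 FPKM in control libraries. In LPS libraries it read 19.2, 18.9 and 20.9 FPKM. All LPS libraries again lay above the control group, with a 3.11-fold higher mean and a log2 fold change of 1.52 (SE 0.16, limma, adjusted p = 0.00014). Irf7, Irf8 and Irf9 passed the threshold in all 20 alternative analyses of this comparison.

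Irf5, a driver of inflammatory cytokine genes (ENSMUSG00000029771, chr6:29526625-29541871, plus strand), was the most abundant member in control cells, at 45.6, 59.5 and 69.8 FPKM, and read 79.4, 74.0 and 78.9 FPKM with LPS. The groups did not overlap, but control libraries were scattered and the log2 fold change of 0.42 (SE 0.16, limma, adjusted p = 0.072) missed the threshold. It passed in 2 of 20 alternatives, with gene-length trends removed (0.48, adjusted p = 0.025) and without control replicate 3 (0.56, adjusted p = 0.027). The value was lower without control replicate 1 (0.26, adjusted p = 0.13), with TPM scaling (0.16, adjusted p = 0.53) and with quantile scaling (0.28, adjusted p = 0.23). Irf5 shares 411 exon bases, 14.1% of its length, with the 3′ end of Tnpo3 on the opposite strand, a gene at 7.76 to 15.1 FPKM. The other overlaps with expressed or unexpressed neighbours cover at most 3.4% of a member's exon bases, and whether reads were counted by strand is not stated, so reads in shared bases cannot be told apart.

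Irf3, the constitutive factor that is activated by phosphorylation rather than by synthesis (ENSMUSG00000003184, chr7:44997648-45002848, plus strand), was 13.7, 11.4 and 16.1 FPKM in control libraries and 11.4, 9.81 and 10.9 FPKM in LPS libraries. The LPS libraries lay just below the control group and the log2 fold change was -0.32 (SE 0.18, limma, adjusted p = 0.22). Scaling to TPM, which shifted the median of all genes to -0.21, gave -0.57 (adjusted p = 0.0063), and leaving out control replicate 3 gave -0.21 (adjusted p = 0.47). The activator Irf1 (ENSMUSG00000018899, chr11:53770014-53778374, plus strand) read 3.14, 2.67 and 3.74 FPKM before and 3.64, 4.15 and 3.72 FPKM after LPS. These ranges overlapped, with a log2 fold change of 0.22 (95% interval -0.11 to 0.54, limma, adjusted p = 0.29). For Irf1 TPM scaling gave 0.01 (adjusted p = 0.97) and leaving out control replicate 2 gave 0.13 (adjusted p = 0.58).

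Irf2, the counterpart of Irf1 (ENSMUSG00000031627, chr8:46739732-46847458, plus strand), covered the same range in both groups, at 3.98, 5.21 and 4.42 FPKM in control and 4.67, 5.33 and 4.06 FPKM in LPS libraries. Its log2 fold change of 0.04 (95% interval -0.40 to 0.47, limma, adjusted p = 0.90) changed sign under TPM scaling. Irf4, best known from lymphocytes and alternatively activated macrophages (ENSMUSG00000021356, chr13:30749226-30766976, plus strand), had between 32 and 72 reads per library and group means of 0.558 ± 0.196, 0.547 ± 0.0761 and 0.561 ± 0.199 FPKM (SD, n = 3) for control, LPS and LPS + G-CDs, respectively. The 3 groups overlapped throughout. A fit without the filter put its 3 log2 fold changes between 0.00 and 0.01, all with an adjusted p of 1.0.

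Because FPKM is scaled to gene length, levels can also be ordered between members, as an approximation. The length used is the merged exon bases of each gene, which can exceed the transcript expressed. The order between members and the shares given below can therefore depend in part on annotation. In control cells Irf5 was first, above Irf3 and Irf8, whose ranges overlapped. Irf9, Irf2, Irf7 and Irf1 followed, each overlapping the next, and Irf4 was last. With LPS the order was Irf7, Irf5, Irf8, Irf9 and Irf3 without overlap between neighbours, then Irf2 and Irf1 together, then Irf4. With LPS + G-CDs the ranges of Irf7 and Irf5 overlapped, as did those of Irf9 and Irf3 and those of Irf1 and Irf2.

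The pool of family mRNA grew as its make-up changed. Summed over the 8 members, it was 104 ± 16.7 FPKM in control cells, 268 ± 10.1 FPKM with LPS and 276 ± 29.3 FPKM with LPS + G-CDs (SD, n = 3). The FPKM of all genes summed to 271284.1 to 314326.5 in control, 347815.4 to 349698.6 in LPS and 333124.8 to 472870.3 in LPS + G-CDs libraries. These sums are therefore not on the same scale in all groups, and the pool was not rescaled. Irf5 made up 55.7 ± 3.42% of the control pool and 28.8 ± 0.338% of the LPS pool, and Irf7 went from 3.91 ± 0.628% to 35.2 ± 0.865%. Irf8 supplied 13.1 ± 1.36% in control cells and 21.2 ± 0.557% with LPS, and Irf3 13.3 ± 2.23% and 3.98 ± 0.181%. Shares of a sum are tied to each other, and they were not tested.

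**Figure D2:**
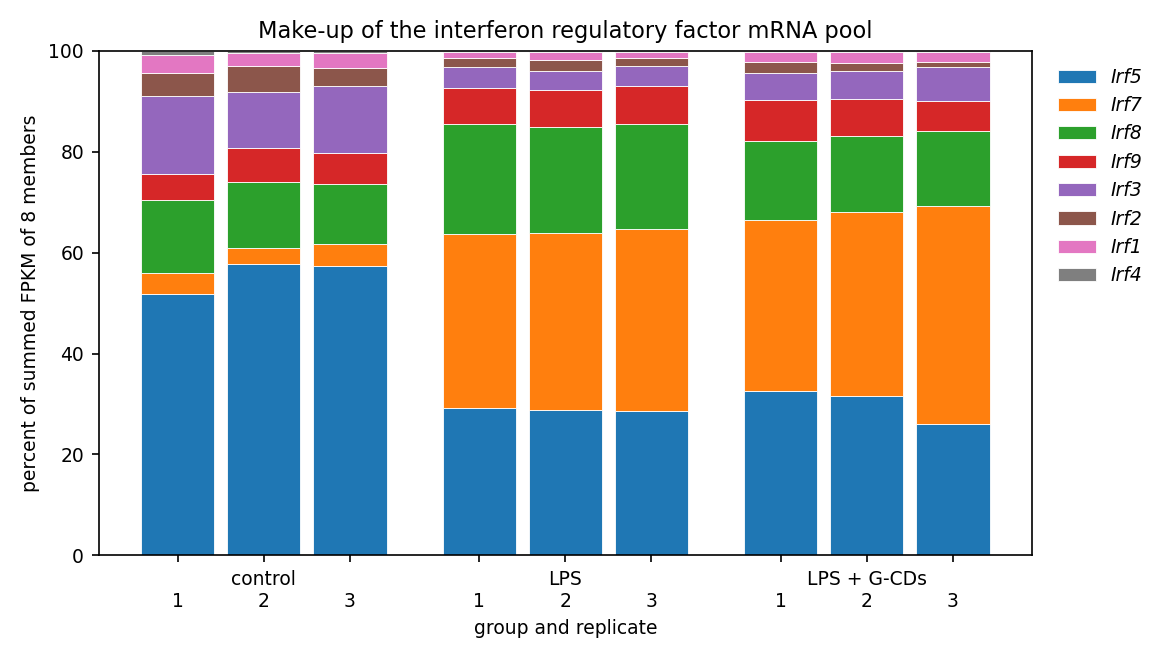
Percent of the summed FPKM of the 8 members (vertical axis) contributed by each member in each of the 9 libraries; bars are grouped by treatment and numbered by replicate. Irf5 fills 51.7 to 57.8% of the control bars, Irf7 fills 34.0 to 43.1% of the 6 LPS-treated bars, and the Irf8 segment is 20.8 to 21.8% with LPS and 14.97 to 15.61% with LPS + G-CDs.

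The next comparison asks what G-CDs changed in LPS-treated cells. No member passed the adjusted threshold (limma, 0 of 7, with 0.492% of all tested genes called, 0.25% higher and 0.242% lower), and voom on the recovered reads also called 0. With single libraries left out, the share of all tested genes called ran from 0.095% to 2.21%, and 0 members were called each time. At an unadjusted p under 0.05 there were 3 members, Irf8, Irf1 and Irf3, where 15.2% of all tested genes reached that level, and at the study's rule of p under 0.01 and over 1.5-fold there were 0, with 2.49% of all genes. In 3 members every LPS + G-CDs library was above every LPS library and in 1 member below, against 12.9% and 15.0% of all tested genes (27.9% together). The median log2 fold change of the members was 0.09, beside 0.02 for all genes.

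Irf8 was the member below. Its 3 LPS + G-CDs libraries read 38.8, 40.8 and 46.0 FPKM, all under the lowest LPS library at 54.1 FPKM and all over the highest control library at 14.2 FPKM. The mean was 0.735 times that of LPS cells, and the log2 fold change was -0.44 (SE 0.11, 95% interval -0.69 to -0.18, limma, adjusted p = 0.18). Over the 20 alternatives the value stayed negative, from -0.60 to -0.26, with adjusted p from 0.072 to 0.55. The end nearest 0 came with gene-length trends removed (adjusted p = 0.40). Among genes of the length class of Irf8, which has 7055 exon bases, the median deviation from the mean of the 9 libraries was 0.07, -0.08 and -0.28 (log2) in the LPS + G-CDs libraries and 0.07 to 0.10 in the LPS libraries. As a share of the family pool, Irf8 was 15.61, 14.97 and 15.01% in LPS + G-CDs libraries and 21.84, 21.05 and 20.76% in LPS libraries, with no overlap, and with length trends removed the group means were 16.4 and 20%.

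For Irf3 and Irf1 the LPS + G-CDs libraries all lay above the LPS group. Irf3 read 13.1, 15.3 and 20.7 FPKM there, against at most 11.4 FPKM in LPS cells, with a mean ratio of 1.53 and a log2 fold change of 0.55 (SE 0.18, limma, adjusted p = 0.27). Those libraries spanned much of the control range and exceeded it in replicate 3. Irf1 read 4.66, 5.90 and 6.30 FPKM, above the highest LPS library at 4.15 FPKM, with a mean ratio of 1.47 and a log2 fold change of 0.45 (SE 0.14, limma, adjusted p = 0.26). Neither passed in any alternative, and the lowest adjusted p, 0.061 for Irf3 and 0.059 for Irf1, came without LPS + G-CDs replicate 1. Without LPS + G-CDs replicate 3, limma gave 0.375 (adjusted p = 0.64) for Irf3 and 0.372 (adjusted p = 0.62) for Irf1. With TPM scaling Irf1 gave 0.302 (adjusted p = 0.39).

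None of the other members reached an unadjusted p under 0.05. Irf7 ranged from 84.5 to 132 FPKM in LPS + G-CDs libraries, on both sides of the LPS group, with a log2 fold change of 0.13 (95% interval -0.31 to 0.57, limma, adjusted p = 0.69). Irf5, at 80.7, 86.2 and 79.9 FPKM, was just above the LPS libraries, with 0.09 (95% interval -0.27 to 0.44, limma, adjusted p = 0.75). Irf9, at 20.2, 20.1 and 18 FPKM, gave -0.02 (95% interval -0.39 to 0.35, adjusted p = 0.95), and Irf2, at 5.55, 4.6 and 2.97 FPKM, gave -0.11 (95% interval -0.54 to 0.33, adjusted p = 0.75). The signs of these 4 values turned under some alternatives, including TPM scaling for Irf5 and Irf7. The intervals of Irf2 and Irf7 reach beyond the size of the change seen for Irf8.

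**Figure D3:**
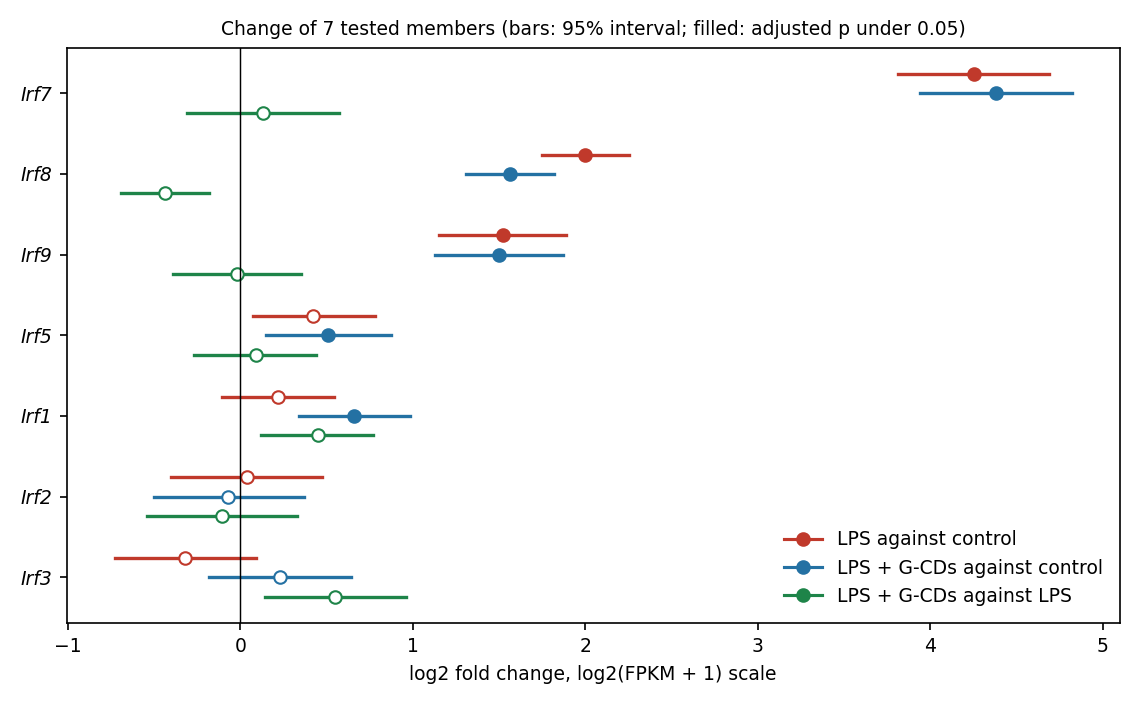
Log2 fold change on the log2(FPKM + 1) scale (horizontal axis) of the 7 tested members in 3 comparisons; points are limma estimates, bars are 95% intervals and filled points have an adjusted p under 0.05. Irf7, Irf8 and Irf9 lie between 1.5 and 4.38 in both comparisons with control cells, and all points of LPS + G-CDs against LPS are open, from -0.44 for Irf8 to 0.55 for Irf3.

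Against control cells, 5 of the 7 members were raised in LPS + G-CDs cells and 0 lowered (limma, 25.3% of all tested genes called, 12.8% upward). These 5 also had an unadjusted p under 0.05 (36.3% of all tested genes) and LPS + G-CDs libraries above all control libraries (17.7% of all tested genes, and 34.3% in either direction). This comparison uses the same control libraries as that of LPS alone and the same LPS + G-CDs libraries as the one above, so its values are not independent of theirs. Irf7 rose by 4.38 (SE 0.19, adjusted p = 5.8e-07), Irf8 by 1.56 (SE 0.11, adjusted p = 1.3e-05) and Irf9 by 1.5 (SE 0.16, adjusted p = 0.00018) on the log2 scale. For LPS alone the same 3 genes gave 4.25, 2.0 and 1.52.

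Irf1 rose by 0.66 (SE 0.14, limma, adjusted p = 0.0089), and its call held in 18 of 19 alternatives, the exception being TPM scaling (0.31, adjusted p = 0.087). Irf5 rose by 0.51 (SE 0.16, limma, adjusted p = 0.044) in the main analysis, but passed in 7 of 20 alternatives. Its call was lost without any one of the libraries apart from control replicate 3 (adjusted p from 0.062 to 0.14, and 0.016 without that replicate), and under TPM (0.08, adjusted p = 0.75) and quantile scaling (0.24, adjusted p = 0.33). Irf3 gave 0.23 (adjusted p = 0.41) and Irf2 gave -0.07 (adjusted p = 0.83), with overlapping groups in both. Whether Irf1 and Irf5 respond differently with and without G-CDs is the direct comparison given above, which called neither.

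The genes that activate these factors rose in part with LPS. Of 25 tested receptors, adaptors and kinases, Tlr3 was under 1 FPKM in the control libraries and entered the test only through libraries in which it was high. Of the other 24, 11 rose and 2 fell (limma, median log2 fold change 0.44, against 0.02 for all tested genes, of which 31.3% were called). With TPM scaling 9 of the 25 were called higher and 4 lower, with a median of 0.22 against -0.21 for all tested genes. The cytosolic RNA sensors Ifih1 (4.27) and Ddx58 (3.37), the Irf3 and Irf7 kinase Ikbke (3.21), the LPS co-receptor Cd14 (2.40) and the adaptor Ticam1 (2.05) rose most, while the LPS receptor Tlr4 (-0.81) and the mitochondrial adaptor Mavs (-0.49) fell. The call on Tlr4 was lost in 5 of 19 alternatives, with no filter and without control replicate 2 or any one LPS replicate (adjusted p up to 0.079). That on Mavs was lost in 2 of 20, with gene-length trends removed and without LPS replicate 1 (adjusted p = 0.067 in both). With G-CDs added to LPS 0 of the 25 were called by limma or voom, and 6 had an unadjusted p under 0.05 (15.2% of all tested genes). Their median was -0.19, 18 of the values were negative, and 8 genes had all LPS + G-CDs libraries below all LPS libraries against 0 above (15.0% and 12.9% of all tested genes). In 15 of the 25 genes LPS + G-CDs replicate 3 was the lowest of its group, as it was for 41.7% of all tested genes. Without that library the median was -0.08, 21 values were negative, and 9 genes lay below all LPS libraries and 2 above (17.7% and 15.6% of all tested genes). Ikbke read 44.3, 42.4 and 43.1 FPKM with LPS and 33.9, 28.6 and 31.4 FPKM with LPS + G-CDs (log2 fold change -0.46, adjusted p = 0.14). Without LPS + G-CDs replicate 1, 1 gene of this list was called, lower, while 2.21% of all tested genes were called (106 higher and 150 lower).

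Of 21 interferon genes only the interferon-β gene Ifnb1 passed the filter, and the highest other value was 0.318 FPKM for Ifnab. Ifnb1 had 0 reads in each control library, 105, 105 and 129 reads in LPS libraries and 70, 98 and 125 reads in LPS + G-CDs libraries. It therefore entered the test only through the treated libraries. Against a floor of 3 reads per control library its mean was at least 47.7-fold higher with LPS and at least 38.9-fold higher with LPS + G-CDs. The treated groups overlapped, with a log2 difference of -0.30 (SE 0.19, limma, adjusted p = 0.38) between them. Among the 9 receptor, JAK and STAT genes, LPS raised, among others, Stat2 (2.04), the partner of Irf9, and the kinase gene Jak2 (1.69), and lowered the receptor genes Ifngr1 (-0.44) and Ifnar2 (-0.37). The calls on both receptor genes were lost without any of 6 libraries, namely control replicates 2 and 3, each LPS replicate and LPS + G-CDs replicate 2. With G-CDs added 0 of 9 were called by limma or voom and 2 had an unadjusted p under 0.05, where 15.2% of all tested genes did.

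Interferon-stimulated genes, the targets through which these factors act on infection, were higher with LPS in every tested case. Of 42 listed genes 40 were tested, and 15 of these were under 1 FPKM in a control library, so they entered the test only through libraries in which they were high. The other 25 all rose, with log2 fold changes from 1.44 to 6.13, where 15.8% of all tested genes rose. With the 15 included, the values ran from 0.79 to 8.72. Isg15 (6.13) and Oasl1 (5.01) are among the 25, while Ccl5 (8.72), Cxcl10 (5.79) and Rsad2 (4.65) belong to the 15. In LPS + G-CDs cells 24 of the 25 passed against control (25.3% of all tested genes), Znfx1 (0.77, adjusted p = 0.054) being the one that did not. Between LPS + G-CDs and LPS cells 0 were called by limma or voom, the lowest adjusted p was 0.2, and 12 of the 40 had an unadjusted p under 0.05 (15.2% of all tested genes). Of their values 20 were positive and 20 negative, from -0.78 to 0.65, and the median of 0.04 turned negative under TPM, quantile scaling and removal of length trends. The groups did not overlap for 9 of the 40 that were higher and 11 that were lower with LPS + G-CDs. Among all tested genes these shares were 12.9% and 15.0%, so more of the listed genes were apart, in both directions. Without LPS + G-CDs replicate 1, 3 of the 40 were called, all lower, beside 256 of all tested genes (2.21%).

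The guanylate-binding, immunity-related GTPase and antigen-processing genes, of which several are known Irf1 and Irf8 targets, had 18 tested members, of which 5 were under 1 FPKM in a control library and entered the test only through libraries in which they were high. Of the other 13, LPS raised 6 and lowered 0 (limma, 31.3% of all tested genes called). Irgm1 (2.71), Igtp (2.43) and Irgm2 (2.10) rose, as did Gbp3 (3.20) and Gbp7 (2.63) among the 5. In LPS + G-CDs cells 8 of the 13 passed against control (25.3% of all tested genes), and against LPS 0 of the 18 were called by limma or voom and 3 had an unadjusted p under 0.05 (15.2% of all tested genes). Of 14 tested partner and regulator genes, 3 were under 1 FPKM in a control library, and of the other 11 LPS raised 4 and lowered 3 (15.8% and 15.6% of all tested genes). The JAK inhibitor Socs3 (5.34), the ubiquitin ligases Peli1 (2.85) and Trim21 (1.37) and Irf2bpl (0.87) were the 4 that rose. The call on Irf2bpl was lost in 5 of 20 alternatives, with TPM or quantile scaling and without control replicate 3 or LPS replicate 1 or 3 (adjusted p up to 0.18). The AP-1 type partners Batf2 (2.17) and Batf (1.79) were among the 3 that entered through treated libraries. Irf2bp2, which encodes a corepressor that binds Irf2, fell by 1.78.

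Irf2bp2 read 15.4, 11.8 and 11.6 FPKM in control, 3.33, 2.65 and 3.09 FPKM in LPS and 4.42, 5.40 and 5.58 FPKM in LPS + G-CDs libraries. The last group lay between the others without overlap, at a log2 fold change of 0.61 over LPS (SE 0.14, limma, adjusted p = 0.15). Peli1, at 31.2, 34.7 and 33.6 FPKM with LPS, read 24.9, 22.6 and 14.9 FPKM with LPS + G-CDs (-0.68, adjusted p = 0.19). Of the 14 genes 0 were called in that comparison by limma or voom, and 3 had an unadjusted p under 0.05, beside 15.2% of all tested genes. The plot of changes by gene list sets the 2 comparisons side by side.

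**Figure D4:**
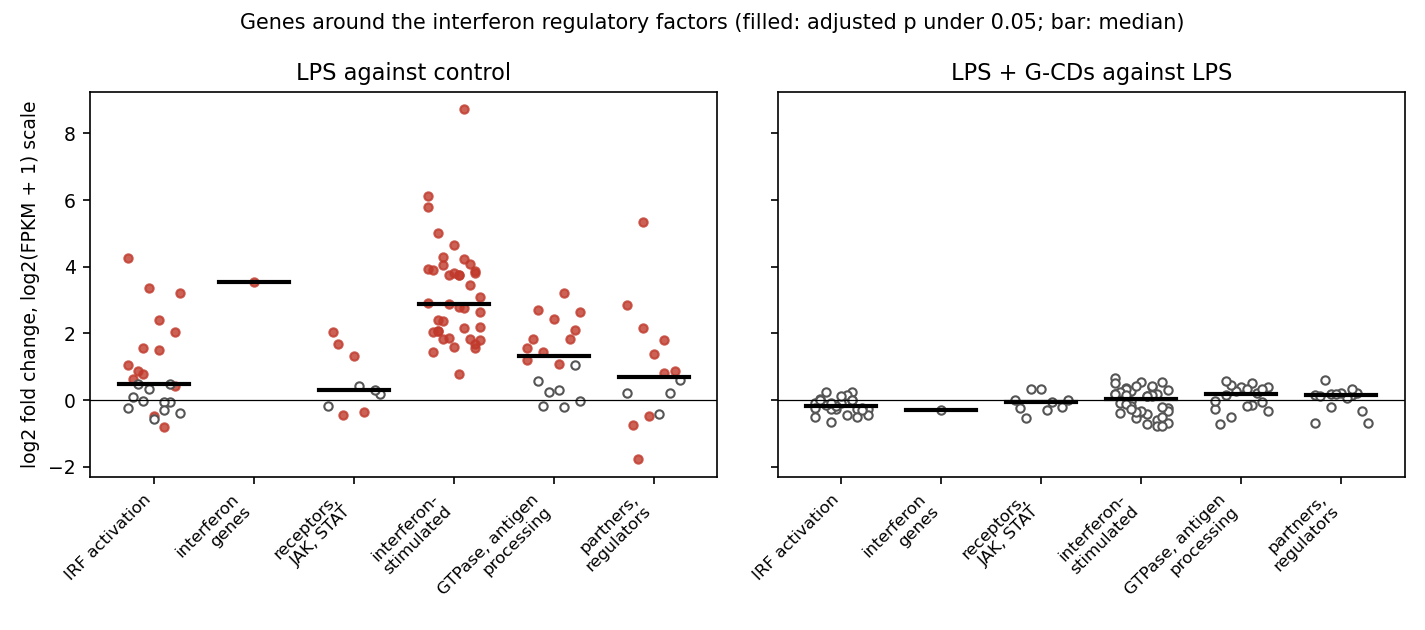
Log2 fold change on the log2(FPKM + 1) scale (vertical axis) of the tested genes in 6 lists around the interferon regulatory factors, for LPS against control (left) and LPS + G-CDs against LPS (right); points are genes, filled where the adjusted p is under 0.05, and bars are list medians. The interferon-stimulated genes lie between 0.79 and 8.72 on the left and between -0.78 and 0.65 on the right, where every point is open; the value of Ifnb1, with no control reads, depends on the pseudocount.

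The genes whose profiles over the 9 libraries were nearest to each member were found as the root-mean-square difference of centred log2(FPKM + 1) values, as a description. Irf7 was nearest to Usp18 (0.093), an interferon-stimulated protease that removes Isg15 from proteins, and to Gadd45b (0.114), a stress-response gene. Usp18 read 4.82, 4.15 and 6.36 FPKM in control, 99.0, 99.4 and 106 FPKM in LPS and 96.1, 120 and 135 FPKM in LPS + G-CDs libraries, in the same rank order as Irf7 within the control and LPS + G-CDs groups. Irf8 was nearest to Gramd1a (0.066), a sterol transfer protein gene, and to Lgals3bp (0.111), which encodes a secreted galectin-binding protein. Irf9 was nearest to Zfp703 (0.088) and Cln3 (0.097), and Irf5 to Rab12 (0.055) and Lamtor3 (0.056). For Irf1 these were Pgrmc1 (0.083) and Gm6210 (0.087), for Irf3 Alg5 (0.069) and Arpp19 (0.075), and for Irf2 Tia1 (0.074) and Nsf (0.082). Flat profiles find near neighbours easily, so the measure ranks genes for 1 member and is not compared between members.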

How the data were processed

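RNA was extracted with TRIzol, mRNA was captured on poly-T beads and sequenced on an Illumina NovaSeq. The authors deposited FPKM values per gene and library with gene coordinates. Per the submitters' processing notes the build was GRCm38 (mm10); the aligner, counter and strand setting are not given in the sources used here. Coordinates equaled GENCODE mouse release 21 for 53585 of 54495 genes found in both. FPKM multiplied by length gave whole reads within 0.05 in 100% of values. These reads gave depth, a floor of 3 reads and the voom alternative. Voom was run with the library sizes set by the authors, so it shares the scaling of the FPKM values. 0 value columns belonged to other samples.

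Genes that reached 1 FPKM in 3 or more of the 9 libraries were fitted as log2(FPKM + 1) with limma 3.58.1 in R 4.3.3 (lmFit, eBayes with trend). Tests were two-sided and adjusted by Benjamini-Hochberg over 11585 genes. Tested on simulated data with 200 changed genes of 11585, the step for LPS + G-CDs against LPS recovered 65% of 2-fold and 98% of 4-fold changes. Of its calls 4.68% were false. The simulation gave all genes and groups the same dispersion and no length trend, unlike these libraries. It held no change under 2-fold, so it does not show how often smaller changes of members would be found. The length class of a gene was 1 of 20 bins of equal gene number. Members, gene lists and markers were chosen with earlier results of these data known. Genes were named if they were members, overlapping loci, the 2 nearest profiles, or at most the 5 largest called changes of a list; the falls of Tlr4, Mavs, Ifngr1 and Ifnar2 beyond these, Ikbke, Irf2bp2, Peli1 and Znfx1 in later comparisons, Tlr3, Trim21, Irf2bpl, Ifnab and Camp were named after their values were seen. Some genes that this rule names are not reported here.

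Groups share replicate numbers whose meaning is not stated. Control and LPS libraries with the same number had deviations from their group means that correlated at 0.103, 0.137 and 0.113, all above a limit of 0.1. LPS and LPS + G-CDs libraries gave 0.095, 0.0801 and 0.143, and control and LPS + G-CDs libraries 0.28, 0.0575 and 0.653, not all above it. Libraries with different numbers were not correlated, so these values cannot decide whether the numbers pair any libraries. Alternatives were a pseudocount of 0.1, no filter, a filter at 5 FPKM, scaling by TPM, by quantiles or by median ratios, the 6 libraries alone, eBayes without trend, voom, a replicate block, removal of gene-length trends and each library left out. Python 3.11.15 with pandas 2.3.3 and matplotlib 3.10.9 prepared tables and figures.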

Additional observations from a re-analysis of the deposited data

How the results depend on the processing

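Of the 139 alternative values of members in each comparison, 132 kept direction and side of the threshold for LPS against control, 128 for LPS + G-CDs against LPS and 121 for LPS + G-CDs against control. Over single libraries left out, the members called numbered 3 to 4, 0 to 0 and 4 to 5 (TPM scaling gave 3 in the last, from 5), and all genes called 2478 to 4289 (from 3630), 11 to 256 (from 57) and 1914 to 3245 (from 2927). The count of 11 came without LPS + G-CDs replicate 2, that of 256 without replicate 1, and 1914 without replicate 2. Between LPS + G-CDs and LPS, the count fell to 25 with a pseudocount of 0.1, 37 with TPM and 25 with the 6 libraries alone, and against control to 1789 with 6 libraries alone. The replicate block gave 4104, 53 and 3347 genes and changed no member's call.

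TPM moved the median of all genes to -0.21, -0.12 and -0.33, and the split to 1015 higher and 3106 lower for LPS against control (from 1827 and 1803) and 755 and 3255 for LPS + G-CDs against control (from 1488 and 1439); quantile scaling gave 1633 and 2355 in the first. Signs turned only in values that had not passed. For LPS against control, Irf2 gave -0.186 with TPM, -0.048 without length trends and -0.041 to 0.124 over single libraries left out. For LPS + G-CDs against LPS, Irf2 gave 0.068 without length trends and -0.264 to 0.096 over libraries left out, and Irf5 -0.081 with TPM, -0.039 with quantile scaling and -0.043 without length trends. Irf7 gave -0.038 with TPM, -0.037 with quantile scaling and -0.045 to 0.276 over libraries left out, and Irf9 0.06 without length trends and -0.048 to 0.032 over libraries left out. For LPS + G-CDs against control, Irf2 gave 0.02 without length trends and -0.225 to 0.135 over libraries left out, and Irf3 gave -0.185 with TPM. The causes were not tested. Irf1 did not pass the filter at 5 FPKM, and Irf4, at 32 to 72 reads per library, did not pass the filter at 1 FPKM.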
